A study of Mus musculus with 27 samples.

Results

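The interval between 4 h and 6 h after a short peroxide exposure was examined in mouse embryonic stem cells. The 3 libraries collected at 6 h were set against the 3 collected at 4 h, which together are 6 of 27 libraries in all. Every library came from E14Tg2a, a single embryonic stem cell line labelled wild type, kept on gelatin with serum, leukemia inhibitory factor and the 2i inhibitor pair, so that no other line or strain is represented. Cells of both times had received 500 µM hydrogen peroxide for 30 min, after which their medium was exchanged for medium conditioned by untreated cells. The series text gives the dose in mM, and the unit used here is that of the treatment protocol. The other groups, treated cells at 0.5, 2, 8, 10 and 24 h and untreated cells at 0 h and 24 h, have 3 libraries each. They are given for orientation only, as levels with no test. No untreated group is labelled for 4 h or 6 h, so time in culture, time since the medium exchange and time since the peroxide cannot be told apart. Of 38352 genes in the deposited tables, 12279 reached 1 FPKM (sequenced fragments divided by transcript length and by the mapped fragments of the library) in at least 3 of the 6 libraries and were compared. Changes are the mean of log2(FPKM + 1) at 6 h minus that at 4 h, and the added 1 FPKM makes changes of genes with little RNA look smaller than they were.

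Hydrogen peroxide oxidizes protein thiols and damages DNA. Cells answer through p53, which induces genes of arrest, repair and death, through NRF2, which induces antioxidant enzymes, and through kinase cascades that switch on short-lived immediate early transcripts. Embryonic stem cells also have to keep up the transcription factor network of pluripotency, several of whose mRNAs turn over quickly. Contact, shape and the cytoskeleton feed into the Hippo pathway, in which the LATS kinases hold back the coactivators YAP and TAZ and thereby the DNA-binding TEAD factors.

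The 6 libraries expressed the markers of embryonic stem cells. Pou5f1 was at 593, 567 and 582 FPKM at 6 h, against 731, 675 and 709.8 at 4 h. Zfp42 was at 255, 231 and 258 FPKM at 6 h, against 195, 185 and 196 at 4 h. Summed FPKM lay between 323810 and 328040 in the 6 h libraries and between 330490 and 340680 in the 4 h libraries, and the number of genes at 1 FPKM or more between 12086 and 12269 at 6 h and between 11982 and 12012 at 4 h. Absolute depth is unknown, and steps between low values placed the depth of the 6 libraries at 0.993 to 1.04 times that of 4 h replicate 1. Set against untreated 0 h replicates 1 and 2, log2 expression increased per 10 points of transcript GC content by 0.114, 0.124 and 0.118 at 6 h and by 0.224, 0.142 and 0.190 at 4 h. The groups did not overlap in this slope. Transcripts of 28 hepatocyte markers summed to 22.5, 24.3 and 88.1 FPKM at 6 h, against 28.8, 23.6 and 27.6 FPKM at 4 h, and Alb in that list was at 17.5 FPKM in 6 h replicate 3 and at or below 0.122 FPKM in the other 5 libraries. Of these 28 genes, 15, 14 and 1 were at 0 in the 6 h libraries and 16, 14 and 15 in the 4 h libraries. Astrocyte markers, 8 genes, summed to 7.37, 15.0 and 13.8 FPKM at 6 h, against 5.17, 4.72 and 4.84 FPKM at 4 h, of which Gfap made up 0.306, 2.77 and 2.53 FPKM at 6 h and 0.363, 0.140 and 0.182 FPKM at 4 h, and most of the rest was Aldh1l1, described last. Lcn2 was at 0, 3.56 and 3.01 FPKM at 6 h, against 0, 0.0211 and 0.0540 FPKM at 4 h, so it was high, like Gfap, in 6 h replicates 2 and 3. Fibroblast markers, 10 genes, summed to between 2.09 and 2.505 FPKM at 6 h and between 2.26 and 2.44 FPKM at 4 h. The part of such RNA in the results was not tested. Values without 6 h replicate 2 and values without 6 h replicate 3 are among the alternatives, but none leaves out both.

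Much of the transcriptome had moved within the 2 h. In limma, 5876 of 12279 genes (47.9%) passed an adjusted p of 0.05. At 6 h, 3135 (25.5%) were higher and 2741 (22.3%) lower, and those shares are the background against which each gene list is read below. Most changes were small: the median change was 0.37 among the higher genes and −0.28 among the lower ones, and the median over all tested genes was −0.0025. In all, 60 genes (0.489%), 55 higher and 5 lower, both passed the test and changed by 1 or more on the log2 scale. In 7184 genes (58.5%), every 6 h library lay on the same side of every 4 h library. The median standard error (SE) of a change was 0.067. A number in brackets after a gene name below is its log2 change, and a gene is said to have risen or fallen only where it passed the test. These are bulk samples, in which fewer cells of a kind and less RNA per cell cannot be told apart.

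**Figure D1:**
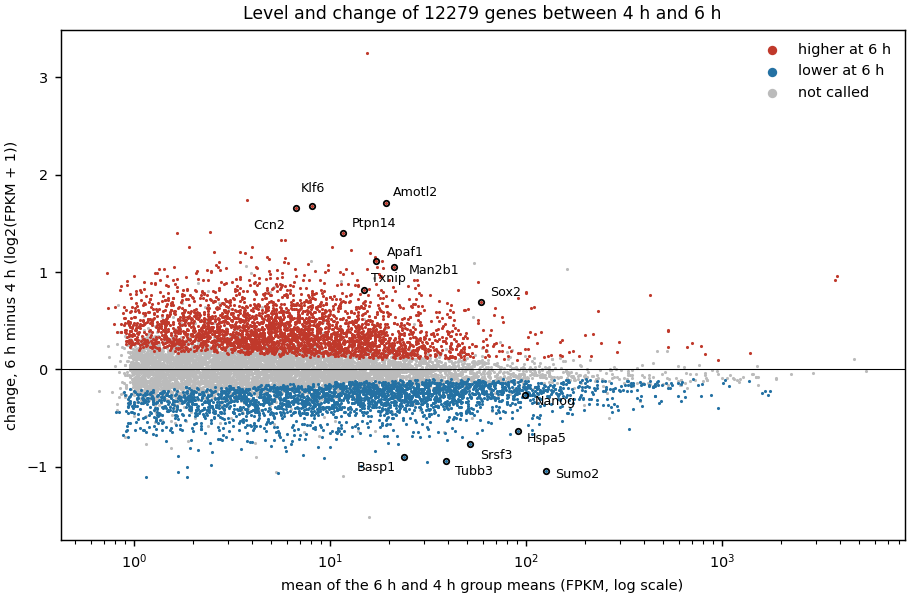
Each point is 1 of 12279 genes, with the mean of the 6 h and 4 h group means on a log FPKM axis and the change, 6 h minus 4 h, on the log2(FPKM + 1) scale, coloured by the limma call. The 4 named rises at the upper left to middle, Amotl2, Klf6, Ccn2 and Ptpn14, stand at 1.40 to 1.70, whereas the named falls reach −1.04 (Sumo2), and the isolated point above 3 is the gene model Gm13230, picked out after its values were seen, at 24.2, 24.5 and 25.4 FPKM at 6 h and at 0, 0 and 18.8 FPKM at 4 h.

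Genes of the Hippo pathway were among the largest rises of all. Amotl2, which encodes angiomotin-like 2, a scaffold that retains YAP in the cytoplasm and is itself induced by YAP, stood at 31.3, 27.9 and 30.5 FPKM at 6 h, against 8.06, 8.55 and 8.82 at 4 h (log2 change 1.70, SE 0.056, limma adjusted p = 2.37e-05). Ccn2, a secreted matricellular protein widely used as a YAP readout, was at 11.1, 9.92 and 11.04 FPKM at 6 h, against 2.82, 2.89 and 2.402 at 4 h (log2 change 1.66, SE 0.073, limma adjusted p = 4.61e-05). Ptpn14, a phosphatase that binds YAP, was at 18.7, 16.2 and 17.00 FPKM at 6 h, against 5.61, 5.94 and 6.16 at 4 h (log2 change 1.40, SE 0.062, limma adjusted p = 4.61e-05). The groups did not overlap in any of these genes, which the naming rule for the largest changes required (58.5% of all tested genes did not overlap). Amotl2 had a mean of 23.6 FPKM in untreated cells at 0 h, 23.6 at 2 h, 8.48 at 4 h, 29.9 at 6 h and 29.4 at 10 h, which made 4 h its lowest and 6 h its highest mean of the series. Ptpn14 differed from that, with 4.597 FPKM in untreated cells at 0 h, 5.905 at 4 h, 17.3 at 6 h and 6.84 at 10 h, so that it had not dipped at 4 h.

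Promoters of 4 genes from the list of YAP and TEAD targets are shown from RefSeq on GRCm38.p6, in their direction of transcription from 250 bases before to 50 after the annotated start. All 4 were called higher at 6 h and hold the match marked below, so they do not represent the whole list. Capitals mark CATTCC, the reverse complement of GGAATG, the core that TEAD factors are known to bind.
Amotl2, chr9:102717554-102717853, plus strand: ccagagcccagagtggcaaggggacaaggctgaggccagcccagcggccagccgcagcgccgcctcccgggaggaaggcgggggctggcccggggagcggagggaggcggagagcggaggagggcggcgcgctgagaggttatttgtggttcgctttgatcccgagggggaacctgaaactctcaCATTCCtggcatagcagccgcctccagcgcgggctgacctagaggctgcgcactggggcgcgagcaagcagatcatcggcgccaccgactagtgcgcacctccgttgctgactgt
Ptpn14, chr1:189728018-189728317, plus strand: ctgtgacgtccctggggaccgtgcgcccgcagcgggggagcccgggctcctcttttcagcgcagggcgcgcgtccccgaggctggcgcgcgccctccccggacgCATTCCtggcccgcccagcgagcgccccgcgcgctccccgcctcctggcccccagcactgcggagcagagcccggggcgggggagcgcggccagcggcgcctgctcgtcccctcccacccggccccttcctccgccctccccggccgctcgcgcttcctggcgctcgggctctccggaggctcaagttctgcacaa
Ccn1, chr3:145649936-145650235, minus strand: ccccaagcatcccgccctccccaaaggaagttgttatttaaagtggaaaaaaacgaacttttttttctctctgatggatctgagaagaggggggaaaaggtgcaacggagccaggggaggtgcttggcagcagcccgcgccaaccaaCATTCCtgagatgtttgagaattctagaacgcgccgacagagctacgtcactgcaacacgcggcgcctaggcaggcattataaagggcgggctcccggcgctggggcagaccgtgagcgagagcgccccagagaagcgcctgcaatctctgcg
Ajuba, chr14:54577612-54577911, minus strand: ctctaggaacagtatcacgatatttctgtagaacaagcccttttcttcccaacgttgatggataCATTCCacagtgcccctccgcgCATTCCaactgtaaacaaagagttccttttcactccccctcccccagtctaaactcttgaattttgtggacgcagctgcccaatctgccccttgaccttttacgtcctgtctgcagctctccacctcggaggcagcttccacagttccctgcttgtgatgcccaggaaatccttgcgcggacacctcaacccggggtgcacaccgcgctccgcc
The core was searched on both strands, and it starts 65 bases before the start in Amotl2, 146 in Ptpn14, 103 in Ccn1, and 186 and 164 in Ajuba. It occurs in 14.7% of 32851 RefSeq promoters of this length and in 7 of the 12 tested members of the YAP and TEAD target list that have an entry (58.3%). These were 5 of 7 higher genes, 1 of 2 lower genes and 1 of 3 genes without a call. The list holds genes chosen as targets of these factors, so its higher share was built into the choice and is no support. A match is a sequence of letters and not a measured binding site.

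Across the YAP and TEAD list, 10 were higher and 2 lower at 6 h among 17 tested of 22 listed genes (58.8% and 11.8%, with 25.5% and 22.3% over all genes), and the median change was 0.37. The scaffold gene Ajuba was at 36.03, 34.1 and 35.3 FPKM at 6 h, against 18.4, 17.9 and 17.9 at 4 h. Ccn1, a sister of Ccn2, was at 20.4, 17.5 and 17.1 FPKM at 6 h, against 12.4, 9.95 and 10.8 at 4 h. The rise extended to the inhibitory arm of the pathway, with Amotl1 (0.69) and the kinases Lats2 (0.49) and Lats1 (0.38). The coactivator mRNAs were not among the rises: Wwtr1, which encodes TAZ, fell to 6.12, 7.04 and 6.23 FPKM at 6 h, against 8.19, 9.52 and 9.02 at 4 h. Yap1 was at 12.1, 11.6 and 11.5 FPKM at 6 h, against 12.6, 13.2 and 12.7 at 4 h (log2 change −0.12, limma adjusted p = 0.0591). Of the DNA-binding partners, Tead1 rose (0.34), Tead2 fell (−0.21) and Tead4 did not pass (−0.19). With a correction for GC content and transcript length the list had 10 higher and 4 lower genes and a median of 0.18.

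**Figure D2:**
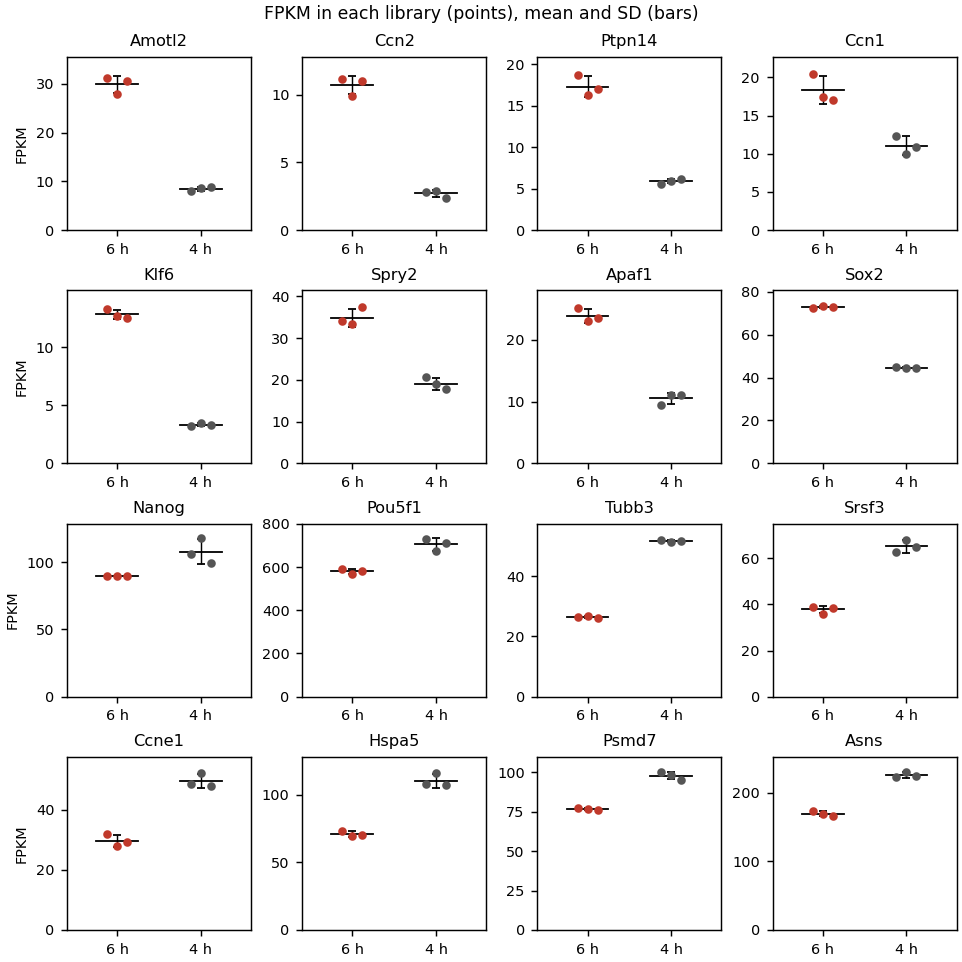
FPKM of 16 genes in each of the 3 libraries at 6 h (red, left) and the 3 at 4 h (gray, right), with the mean and SD as bars and each axis starting at 0. The 6 h and 4 h libraries do not overlap in any panel, as in 58.5% of all tested genes. The naming rule required this of the largest changes, such as Amotl2 and Tubb3, so it is no separate result for them. Amotl2 stands at 27.9 to 31.3 FPKM at 6 h against 8.06 to 8.82 FPKM at 4 h. Tubb3 stands at 26.0 to 26.8 FPKM at 6 h against 51.2 to 51.8 FPKM at 4 h.

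Immediate early transcripts moved in both directions. Among 23 tested genes 10 were higher and 7 lower at 6 h. The median was 0.010. Klf6, a zinc finger factor of wound and stress responses, was at 13.3, 12.7 and 12.5 FPKM at 6 h, against 3.22, 3.49 and 3.29 at 4 h (log2 change 1.67, SE 0.051, limma adjusted p = 2.37e-05). Its mean had been 6.13 FPKM in untreated cells at 0 h and 6.68 at 2 h. Fosl1, the Fos relative FRA-1, was at 6.63, 9.37 and 8.62 FPKM at 6 h, against 4.53, 5.704 and 6.24 at 4 h (0.50), after 0.1000 FPKM in untreated cells at 0 h. That call was lost in 4 of 17 alternatives. Ier3, a survival gene, was at 1.97, 2.04 and 2.04 FPKM at 6 h, against 0.543, 0.369 and 0.646 at 4 h. Ier3 passed the filter only through the 6 h libraries, so it could enter the comparison only as a gene higher at 6 h. Rhob (0.50) and Zfp36 (0.43), whose protein destabilizes mRNAs, also rose. Fos itself was lower, at 4.26, 4.47 and 4.86 FPKM at 6 h, against 6.39, 6.73 and 6.75 at 4 h (log2 change −0.46, SE 0.059, limma adjusted p = 0.000797), as were Atf3 (−0.44), the small Maf gene Maff (−0.46), Jund (−0.52) and Srf (−0.40). Egr1, whose highest mean of the series was 9.84 FPKM at 2 h, was at 0.903, 1.597 and 1.35 FPKM at 6 h, against 1.71, 1.88 and 1.62 at 4 h and did not pass (limma adjusted p = 0.0913). The summed FPKM of the list overlapped between the times, at 253, 257 and 258 FPKM at 6 h, against 262, 247 and 256 at 4 h.

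Many negative feedback genes of the MAP kinase pathway rose. Of the list, 10 genes were higher and 1 was lower of 18, with a median of 0.32. Spry2, a Sprouty inhibitor of receptor signaling, was at 33.99, 33.3 and 37.4 FPKM at 6 h, against 20.6, 18.99 and 17.8 at 4 h (log2 change 0.84, SE 0.065, limma adjusted p = 0.000151). Dusp6, the phosphatase of ERK, was at 7.53, 8.15 and 7.19 FPKM at 6 h, against 3.64, 4.16 and 4.41 at 4 h. Phlda1 was at 10.2, 9.89 and 11.1 FPKM at 6 h, against 5.64, 5.43 and 6.07 at 4 h. Spred1 (0.59), Dusp5 (0.55), Spry4 (0.52), Spry1 (0.37) and Dusp1 (0.35) rose as well, so all 3 tested Sprouty genes were higher. Dusp4 was the exception, at 1.59, 1.59 and 1.33 FPKM at 6 h, against 2.44, 3.12 and 2.99 at 4 h (−0.62). Etv4 and Etv5, transcriptional targets of ERK, overlapped between the times, with changes of −0.12 and −0.060. Phlda1 continued upward to a mean of 14.6 FPKM at 10 h, whereas Spry2 stayed near 34.7 FPKM at 8 h.

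Genes of p53 moved in both directions, while its central regulator Mdm2 and its arrest target Cdkn1a had no call. Mdm2, the ubiquitin ligase that degrades p53, was at 140.3, 144 and 137 FPKM at 6 h, against 125, 130.2 and 135 at 4 h (log2 change 0.10, limma adjusted p = 0.0623). Cdkn1a, the arrest gene p21, was at 56.6, 54.6 and 53.4 FPKM at 6 h, against 60.1, 52.6 and 56.5 at 4 h (log2 change −0.037, limma adjusted p = 0.589). Neither passed the test, and the times overlapped in Cdkn1a but not in Mdm2. Both had been lower before, with Mdm2 at 32.7 FPKM and Cdkn1a at 26.8 FPKM at 2 h, and Mdm2 was at 57.5 FPKM at 8 h. Trp53 mRNA was slightly lower, at 89.3, 98.1 and 92.2 FPKM at 6 h, against 112, 107 and 111 at 4 h (−0.24). Of 26 tested feedback, arrest and repair targets 12 were higher and 4 lower at 6 h, with a median of 0.084 (7 higher and 1 lower with all 27 libraries in the fit). Mdm4, the Mdm2 partner that masks p53, was at 30.1, 25.6 and 27.7 FPKM at 6 h, against 15.99, 17.8 and 17.8 at 4 h (0.66). The calls of Mdm4 and of Trp53inp1, given below, were lost with all 27 libraries in the fit (limma adjusted p = 0.393 and 0.139). The repair gene Polk, a translesion polymerase, averaged 17.7 ± 1.004 FPKM at 6 h and 10.9 ± 0.951 FPKM at 4 h (SD, n = 3 each). Ercc5, an excision nuclease, averaged 15.6 ± 0.837 FPKM at 6 h and 10.01 ± 0.548 FPKM at 4 h (SD, n = 3 each). Trp53inp1 (0.54), Zmat3 (0.47) and Eda2r (0.42) rose, and Sesn2 (−0.23), Plk2 (−0.15) and Tigar (−0.15) fell.

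The death effectors of p53 leaned upward. Among 14 tested genes 8 (57.1%) were higher and 3 (21.4%) lower, with a median of 0.23. Apaf1, the core of the apoptosome, was at 25.1, 22.97 and 23.5 FPKM at 6 h, against 9.48, 11.1 and 11.1 at 4 h (log2 change 1.11, SE 0.067, limma adjusted p = 7.09e-05). Fas, the death receptor, was at 3.99, 4.42 and 4.42 FPKM at 6 h, against 1.72, 1.44 and 1.54 at 4 h (log2 change 1.04, SE 0.070, limma adjusted p = 9.06e-05). Perp, a desmosomal p53 target, was at 57.6, 58.1 and 59.03 FPKM at 6 h, against 38.4, 36.6 and 38.5 at 4 h. Pmaip1, which encodes NOXA, was at 24.9, 26.8 and 24.9 FPKM at 6 h, against 17.5, 17.4 and 16.9 at 4 h. The groups did not overlap in any of them, as in 58.5% of all tested genes, and each had its highest group mean of the series at 6 h. Apaf1 was at 5.44 FPKM in untreated cells at 0 h and 14.1 at 8 h. Fas was at 0.293 FPKM in untreated cells at 0 h and 1.85 at 8 h. Other BH3 and pore-forming members were lower, with Bbc3, which encodes PUMA, at 17.3, 16.99 and 17.6 FPKM at 6 h, against 24.1, 21.7 and 25.2 at 4 h (−0.43) and Bax at 157, 142 and 156 FPKM at 6 h, against 183, 164 and 174 at 4 h (−0.19).

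**Figure D3:**
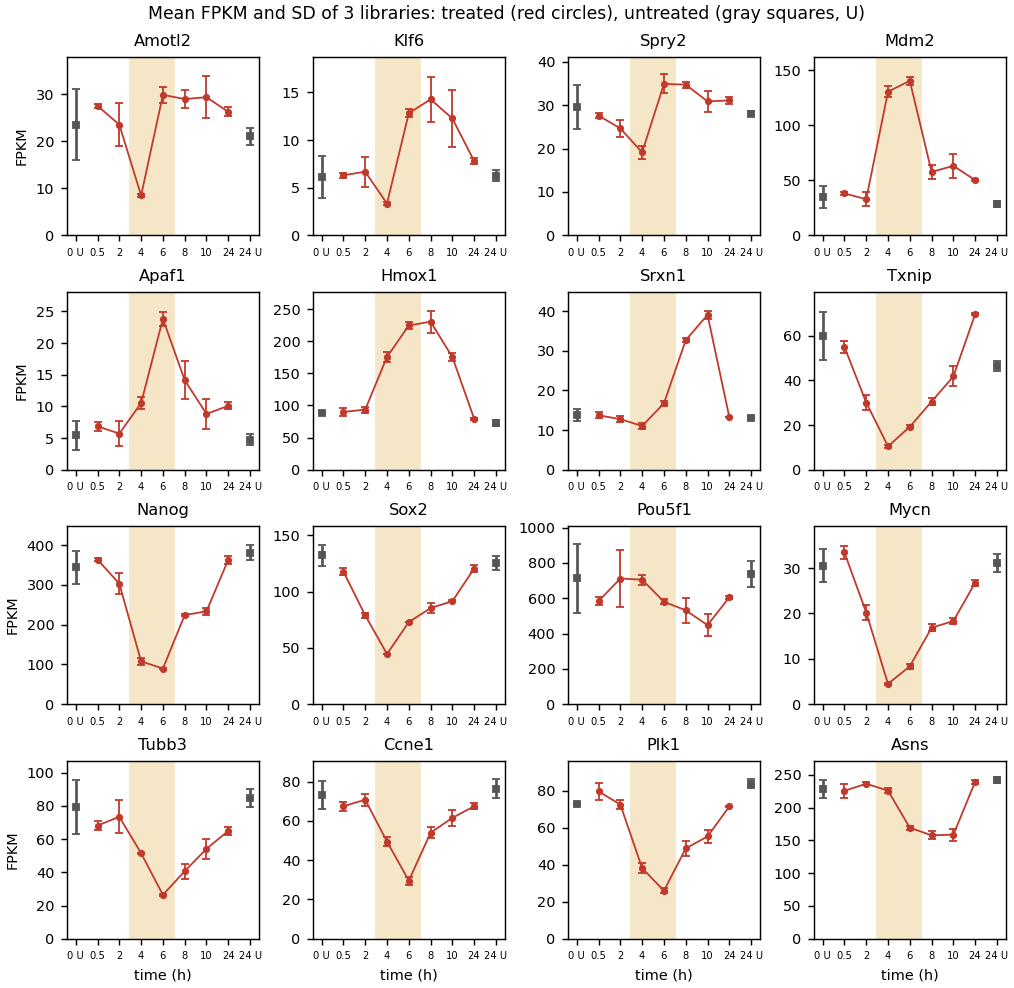
Group means of 16 genes in FPKM with the SD over 3 libraries as bars, for treated cells in order of time (red circles joined by lines) and for untreated cells (gray squares, marked U), with the interval from 4 h to 6 h shaded. Amotl2, Spry2, Txnip, Sox2 and Mycn are higher at 6 h than at 4 h, Mdm2 is near its maximum at both, and Nanog, Tubb3, Ccne1 and Plk1 have their lowest mean at 6 h.

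All 14 core pluripotency genes passed the test, and they moved in opposite directions. Sox2, which binds DNA with OCT4, was at 72.7, 73.3 and 72.8 FPKM at 6 h, against 44.8, 44.4 and 44.7 at 4 h (log2 change 0.70, SE 0.030, limma adjusted p = 4.61e-05), and the replicates of each time differed by less than 1 FPKM. Pou5f1, the gene of OCT4, was lower (log2 change −0.28, SE 0.040, limma adjusted p = 0.00131), a call lost when all 27 libraries were fitted together (limma adjusted p = 0.213). Nanog was at 89.9, 89.8 and 89.7 FPKM at 6 h, against 106, 118 and 99.5 at 4 h (log2 change −0.26, SE 0.058, limma adjusted p = 0.00894). That was its lowest mean of the series, after 344 FPKM in untreated cells at 0 h and 303 at 2 h. It stood at 224 FPKM at 8 h. Zfp42 (0.37), Sall4 (0.44), Foxd3 (0.56) and Rif1 (0.72) rose with Sox2. The Rif1 call was lost with all 27 libraries in the fit (limma adjusted p = 0.169). Utf1 fell to 47.1, 48.4 and 44.4 FPKM at 6 h, against 76.5, 68.5 and 72.5 at 4 h. Tdgf1, the Nodal coreceptor Cripto, fell to 84.2, 82.6 and 83.6 FPKM at 6 h, against 125, 135 and 128 at 4 h. Lin28a, which blocks let-7 processing, fell to 32.6, 34.4 and 32.1 FPKM at 6 h, against 52.01, 50.2 and 49.8 at 4 h. Gdf3 (−0.60), Dppa2 (−0.38), Dppa4 (−0.18) and Dppa5a (−0.24) fell as well, which made 5 higher and 9 lower genes and a median of −0.25.

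Naive pluripotency factors had more rises than falls, with 11 higher and 3 lower of 19 and a median of 0.16. With the GC and length correction there were 8 higher and 3 lower and the median was 0.071, and with all 27 libraries in the fit there were 5 higher and 2 lower. Fgf4, the autocrine growth factor of these cells, was at 25.4, 22.1 and 25.6 FPKM at 6 h, against 14.01, 14.2 and 13.8 at 4 h (log2 change 0.76, SE 0.060, limma adjusted p = 0.000152). Klf5 was at 32.3, 34.6 and 34.1 FPKM at 6 h, against 19.7, 21.7 and 20.8 at 4 h. Gbx2 (0.54), Klf2 (0.32) and Nr5a2 (0.30) followed. Klf4 was at 41.3, 42.4 and 42.3 FPKM at 6 h, against 37.01, 39.2 and 40.03 at 4 h, a rise of 0.11 that lost its call in 14 of 17 alternatives, and Esrrb did not pass (0.064). Prdm14, a repressor of differentiation and of DNA methylation, fell to 2.27, 2.37 and 2.08 FPKM at 6 h, against 4.53, 5.71 and 3.99 at 4 h (−0.82). Dppa3 (−0.37) and Nr0b1 (−0.29) were lower. The 3 DNMT3 genes, which serve de novo DNA methylation and stand in the formative and primed list, were lower too, with Dnmt3l at 90.2, 86.4 and 89.2 FPKM at 6 h, against 128, 123 and 125 at 4 h (−0.49), Dnmt3a (−0.44) and Dnmt3b (−0.34), while Zic2 (0.26) and Zic5 (0.53) rose. The Dnmt3b call was lost with all 27 libraries in the fit (limma adjusted p = 0.240). Mycn, a growth regulator of the Myc family, was at 9.04, 8.17 and 7.87 FPKM at 6 h, against 4.74, 4.41 and 4.34 at 4 h (0.77), still below its mean of 30.5 FPKM in untreated cells at 0 h, and Myc rose by less (0.27). Sox2, Fgf4, Foxd3 and Mycn each had their lowest mean of the series at 4 h, and Nanog, Prdm14, Utf1, Tdgf1, Lin28a and Gdf3 at 6 h.

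Among signaling pathways of the early embryo, the BMP and Wnt lists had more higher than lower calls. Of 11 BMP and Id genes 8 were higher and 0 lower, among them the transducer Smad5 (0.51) and the target Id1 (0.25). The ligand gene Bmp4 was at 3.503, 2.44 and 3.12 FPKM at 6 h, against 1.94, 1.98 and 1.64 at 4 h. With the GC and length correction the count was 4 higher and 0 lower, and with all 27 libraries in the fit 3 higher and 0 lower. Among Wnt genes 6 were higher and 3 lower of 13, and 2 higher and 2 lower with a filter of 5 FPKM. The direct target Sp5 was at 2.34, 2.43 and 2.73 FPKM at 6 h, against 0.766, 0.761 and 0.551 at 4 h (1.05). Sp5 passed the filter only through the 6 h libraries, so it could enter the comparison only as a gene higher at 6 h. The feedback gene Axin2 was at 3.88, 3.47 and 3.78 FPKM at 6 h, against 2.07, 2.12 and 2.098 at 4 h (0.60). Tcf7l1, the repressor that opposes Wnt in pluripotent cells, fell to 11.99, 12.1 and 12.2 FPKM at 6 h, against 19.7, 20.1 and 19.8 at 4 h (−0.67). Both Sp5 and Axin2 continued upward, to 7.705 and 7.72 FPKM at 8 h. In the Nodal list of 15 tested genes 1 was higher, Smad3 (0.61), and 4 were lower, the Nodal antagonist Lefty2 (−0.67), Tdgf1, Gdf3 and Foxh1 (−0.18). The lower share, 26.7%, was near that of all genes, and the median was 0.012 (−0.11 with the GC and length correction). FGF genes moved far but apart, with Fgf17 at 0.851, 1.01 and 0.852 FPKM at 6 h, against 2.73, 2.79 and 2.901 at 4 h (log2 change −0.9999, SE 0.068, limma adjusted p = 9.06e-05). Fgf17 reached 1 FPKM in every 4 h library but at 6 h in replicate 2 only, so it passed the filter through the 4 h libraries. The carrier protein gene Fgfbp1 was at 5.81, 5.04 and 5.14 FPKM at 6 h, against 2.75, 2.29 and 2.38 at 4 h (0.87).

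The list of the NRF2 antioxidant pathway held both rises and falls. In that list 5 of 28 genes (17.9%) were higher and 12 (42.9%) lower, with 25.5% and 22.3% over all genes. The median was −0.078. Srxn1, sulfiredoxin, which repairs overoxidized peroxiredoxins, was at 16.4, 17.5 and 16.4 FPKM at 6 h, against 10.9, 10.3 and 11.9 at 4 h (log2 change 0.56, SE 0.058, limma adjusted p = 0.00036). It went on to 32.7 FPKM at 8 h and 39.1 at 10 h. Hmox1, heme oxygenase, was at 223, 219 and 231 FPKM at 6 h, against 178, 167 and 182 at 4 h (0.35). The heme transporter Slc48a1 (0.30), the autophagy receptor and NRF2 target Sqstm1 (0.28) and Mafg (0.15) rose. Nqo1, a standard NRF2 target, was lower at 43.01, 42.98 and 42.8 FPKM at 6 h, against 46.8, 49.8 and 48.3 at 4 h (−0.17). The glutathione synthesis gene Gclm (0.089) and thioredoxin reductase Txnrd1 (0.067) did not pass. Gclm was at 25.5 FPKM and Nqo1 at 69.5 FPKM at 10 h. When all 27 libraries were fitted together, 4 higher and 1 lower were called in this list, and the balance turned. Leaving out a single library gave 5 higher and 6 lower without 6 h replicate 3 and 4 higher and 7 lower without 4 h replicate 3, and without 6 h replicate 1 the count was 3 higher and 8 lower.

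Among peroxide and superoxide scavengers more genes fell than rose. The list had 2 higher and 9 lower genes of 24, 13 without a call, and a median of −0.14. With all 27 libraries in the fit there were 1 higher and 3 lower. Msrb2, a mitochondrial methionine sulfoxide reductase, fell to 5.64, 4.41 and 4.42 FPKM at 6 h, against 9.76, 8.68 and 10.6 at 4 h (log2 change −0.88, SE 0.10, limma adjusted p = 0.000542). Glutaredoxin, Glrx, fell to 1.29, 1.32 and 1.32 FPKM at 6 h, against 2.17, 2.43 and 2.34 at 4 h (−0.52). Gpx4, Gpx1, Prdx2, Prdx4, Prdx6, Prdx3 and Sod2 fell by smaller amounts, with changes of −0.27 to −0.12. Txnip, the thioredoxin inhibitor that answers to glucose, rose to 19.8, 19.4 and 18.4 FPKM at 6 h, against 10.4, 11.1 and 9.900 at 4 h (log2 change 0.82, SE 0.052, limma adjusted p = 8.22e-05). Gpx3, a secreted peroxidase, was at 30.9, 29.7 and 30.8 FPKM at 6 h, against 20.5, 18.4 and 23.3 at 4 h. Among metallothionein and zinc genes 3 of 6 rose (50%, with 25.5% over all genes) and 0 fell. The rises were Slc39a14 (0.57), the zinc exporter Slc30a1 (0.49) and Mt1, at 158, 172 and 173 FPKM at 6 h, against 142, 126 and 139.8 at 4 h. The calls of Gpx3 and Mt1 were lost with all 27 libraries in the fit (limma adjusted p = 0.0836 and 0.395). Cytosolic heat shock genes had 1 higher, Cryab (0.46), and 7 lower of 18, led by Dnaja1 (−0.52) and Hspa8 (−0.33), and 0 higher and 3 lower with all 27 libraries. The inducible Hspa1a, which shares most of its sequence with Hspa1b, overlapped between the times (0.18).

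Most genes of the amino acid stress response fell. Of 26 ATF4 and integrated stress response genes 17 (65.4%) were lower and 3 higher, with a median of −0.27, and the count was 4 higher and 17 lower with the GC and length correction. Asns, asparagine synthetase, fell to 173, 169 and 166 FPKM at 6 h, against 222, 230.1 and 225 at 4 h (log2 change −0.41, SE 0.032, limma adjusted p = 0.00015). The serine pathway genes Psph (−0.44), Phgdh (−0.37), Psat1 (−0.35) and Shmt2 (−0.29) fell together with mitochondrial Pck2 (−0.54) and the proline gene Aldh18a1 (−0.47). Asns was at 229 FPKM in untreated cells at 0 h and 158 at 8 h. Atf4 itself fell by less (−0.13), Ddit3, the CHOP gene, did not pass (−0.034), and Cebpg, an ATF4 partner, rose (0.56). Among ER chaperone and unfolded protein genes 6 were higher and 8 lower of 24 (33.3% lower, median −0.055). There were 3 higher and 4 lower with all 27 libraries in the fit and 3 higher and 10 lower with the GC and length correction. The lumenal chaperone Hspa5 (BiP) fell to 73.4, 69.3 and 70.2 FPKM at 6 h, against 108, 116 and 107 at 4 h (log2 change −0.63, SE 0.044, limma adjusted p = 9.89e-05). The chaperone-like Manf (−0.45), Hsp90b1 (−0.27) and Calr (−0.22) were lower too. Of ER-associated degradation, Edem1 (0.42), Sel1l (0.25) and Syvn1 (0.22) were higher, and Derl3 was lower (−0.41). Derl3 was at 0.611, 0.783 and 0.934 FPKM at 6 h, against 1.62, 1.26 and 1.20 at 4 h. It passed the filter only through the 4 h libraries, so it could enter the comparison only as a gene lower at 6 h.

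Lysosomal genes leaned upward, with 21 higher and 2 lower of 37 (56.8% and 5.41%) and a median of 0.16. With all 27 libraries in the fit there were 11 higher and 1 lower. The summed FPKM of the tested members was 1435, 1417 and 1422 FPKM at 6 h, against 1248, 1230.3 and 1239 at 4 h. Group means were 872 FPKM in untreated cells at 0 h and 893 at 2 h. Gaa, acid alpha-glucosidase, was at 42.2, 41.1 and 42.02 FPKM at 6 h, against 28.2, 26.4 and 27.3 at 4 h (log2 change 0.59, SE 0.038, limma adjusted p = 8.18e-05). Lamp1, a major membrane protein of lysosomes, was at 309, 311 and 306 FPKM at 6 h, against 272, 276 and 268 at 4 h (0.18). Gpnmb, a lysosomal damage marker, was at 1.68, 1.799 and 2.18 FPKM at 6 h, against 0.486, 0.578 and 0.593 at 4 h. Gpnmb passed the filter only through the 6 h libraries, so it could enter the comparison only as a gene higher at 6 h. Scarb2 (0.53) and Tpp1 (0.50) rose, and so did Fnip1 (0.48), Fnip2 (0.48) and Flcn (0.39), which control the nuclear entry of TFEB and TFE3. The 2 lower genes were the transcription factors Mitf (−0.43) and Tfeb (−0.35), and Tfe3 did not pass (0.072). Autophagy genes had 9 higher and 4 lower members of 29 (31.0% and 13.8%, with 25.5% and 22.3% over all genes). Atg9b (0.49) and Wipi1 (0.37) were at the upper end, and the mitophagy receptor Bnip3 was at 3.24, 2.69 and 2.95 FPKM at 6 h, against 5.17, 5.02 and 5.03 at 4 h (−0.62). With the GC and length correction the autophagy count was 8 higher and 7 lower, and with all 27 libraries 5 higher and 3 lower.

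Among cell cycle genes, G1 cyclins and many mitotic regulators fell. Ccne1, cyclin E1, fell to 31.8, 27.8 and 29.1 FPKM at 6 h, against 48.4, 52.01 and 47.9 at 4 h (log2 change −0.72, SE 0.057, limma adjusted p = 0.000155). Cyclin D1, Ccnd1, fell to 15.1, 17.4 and 17.00 FPKM at 6 h, against 26.9, 27.7 and 26.7 at 4 h. Ccnd3 fell to 16.9, 17.6 and 16.5 FPKM at 6 h, against 23.99, 24.1 and 25.4 at 4 h. Over the G1/S and replication list 9 were higher and 11 lower of 35, near the background, with E2f2 (0.56) and Cdc6 (0.32) among the rises, Tk1 (−0.40) and Pcna (−0.25) among the falls and most MCM helicase genes without a call. Without 6 h replicate 2 that balance turned to 9 higher and 8 lower genes, the GC and length correction gave 7 higher and 17 lower, and all 27 libraries 1 higher and 4 lower. Of 40 mitotic genes 20 (50.0%) were lower and 7 higher, with a median of −0.12 (2 higher and 10 lower with all 27 libraries). Plk1, a master kinase of mitosis, was at 25.7, 24.7 and 27.4 FPKM at 6 h, against 38.4, 40.7 and 35.6 at 4 h (log2 change −0.54, SE 0.059, limma adjusted p = 0.000446). Cdk1, its partner in mitotic entry, was at 26.7, 24.3 and 24.8 FPKM at 6 h, against 37.4, 35.95 and 35.2 at 4 h. Nusap1 (−0.49), Cdc20 (−0.46) and Ccnb2 (−0.44) fell. Aurka (0.21), Ect2 (0.45) and the kinesin Cenpe (0.42) rose, and Ccnb1 overlapped between the times (−0.077). Among inhibitors of cyclin-dependent kinases and pocket proteins 5 of 9 rose and 0 fell (3 higher and 0 lower with all 27 libraries). Rb1, the retinoblastoma gene, was at 10.9, 9.91 and 10.5 FPKM at 6 h, against 4.52, 5.44 and 5.23 at 4 h (log2 change 0.92, SE 0.071, limma adjusted p = 0.000146). Cdkn2d (0.58), Cdkn1b (0.52), Rbl2 (0.37) and Cdkn2b (0.30) followed, and Cdkn1a, as given above, did not pass.

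Most tubulin mRNAs fell. Of 14 tested genes 11 (78.6%) were lower and 1 higher, with a median of −0.35, and 11 were lower also with all 27 libraries and with the GC and length correction. Their summed FPKM was 2300.0, 2285 and 2235 FPKM at 6 h, against 2961, 2915 and 2945 at 4 h. It had been 3289.5 FPKM in untreated cells at 0 h and 3226 at 2 h. It was 2253 at 8 h. Tubb3, a beta tubulin isotype, was at 26.4, 26.8 and 26.00 FPKM at 6 h, against 51.8, 51.2 and 51.5 at 4 h (log2 change −0.94, SE 0.033, limma adjusted p = 2.38e-05), and the abundant alpha tubulin Tuba1b at 844, 812 and 809 FPKM at 6 h, against 1093, 1060.5 and 1083 at 4 h (−0.39). Tuba1a (−0.37), Tuba1c (−0.38) and Tuba1b share much of their sequence, so reads can be split between them. The divergent epsilon tubulin Tube1 rose (0.42).

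Repair genes had 9 higher and 9 lower of 33 (27.3% and 27.3%, near the 25.5% and 22.3% of all genes). With all 27 libraries in the fit there were 4 higher and 4 lower. Apex1, the abasic site endonuclease of base excision repair, fell to 79.5, 85.7 and 83.5 FPKM at 6 h, against 134, 132 and 129 at 4 h (log2 change −0.66, SE 0.038, limma adjusted p = 6.83e-05). The base excision genes Ogg1 (−0.30), Lig3 (−0.33) and Ung (−0.19) were lower together with the end-joining pair Xrcc5 (−0.28) and Xrcc6 (−0.27). Palb2 (0.65), Brca1 (0.36) and Rad52 (0.34) of homologous recombination and Lig4 (0.55) of end joining rose, and Fen1 (0.15) and Xrcc1 (0.14) of base excision repair rose slightly. Of the replication-dependent histones, whose mRNAs lack a poly(A) tail, 8 of 37 were expressed enough to be tested, and 1 changed, H1f2 (−0.71).

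Protein turnover and mitochondrial protein genes were lower in most members, each by a small amount. Proteasome subunits had 27 lower (84.4%) and 0 higher of 32, with a median of −0.21, and all 32 had a negative change. The lid subunit gene Psmd7 was at 77.3, 76.6 and 76.3 FPKM at 6 h, against 100.2, 98.7 and 95.4 at 4 h (log2 change −0.35, SE 0.033, limma adjusted p = 0.000253), and the catalytic subunit gene Psmb5 at 88.2, 93.8 and 90.8 FPKM at 6 h, against 119, 99.7 and 108 at 4 h (−0.25). Nuclear genes of the respiratory chain had 30 lower (73.2%) and 0 higher of 41, with a median of −0.16, among them Ndufa2 of complex I at 44.3, 41.6 and 46.2 FPKM at 6 h, against 62.6, 51.1 and 56.5 at 4 h (−0.36), Sdhb of complex II (−0.33) and Cycs, cytochrome c (−0.26). Cytosolic ribosomal proteins had 21 lower (26.6%, near the background) and 0 higher of 79, with a median of −0.11. These are short transcripts, and the shift of ribosomal protein mRNAs against untreated 0 h replicates 1 and 2 was 0.271, 0.233 and 0.257 at 6 h and 0.448, 0.288 and 0.365 at 4 h. After the GC and length correction the counts were 0 higher and 26 lower for the proteasome, 0 higher and 22 lower for the respiratory chain and 0 higher and 10 lower for ribosomal proteins. With all 27 libraries in the fit, the proteasome had 0 higher and 12 lower, the respiratory chain 0 higher and 1 lower, and ribosomal proteins 0 higher and 0 lower. The ribosomal protein count was also set by single libraries, with 0 higher and 2 lower without 6 h replicate 3, 0 higher and 3 lower without 4 h replicate 3, 0 higher and 5 lower without 4 h replicate 1, 0 higher and 8 lower without 6 h replicate 2 and 0 higher and 41 lower without 4 h replicate 2. The respiratory chain had 0 higher and 19 lower without 6 h replicate 3.

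Other growth and metabolic lists had more falls than rises. Ribosome biogenesis genes had 20 lower and 3 higher of 40, with the assembly factor Nop16 at 28.5, 28.6 and 27.98 FPKM at 6 h, against 39.6, 37.8 and 39.7 at 4 h (−0.45), the snoRNP protein Nop58 (−0.38) and the RNA polymerase I factor Ubtf (−0.37) lower, and Utp20 (0.58) and the largest polymerase I subunit Polr1a (0.25) higher. Glycolysis and hypoxia targets had 14 lower and 3 higher of 27, with 2 higher and 8 lower without 6 h replicate 3 and 4 higher and 9 lower without 6 h replicate 1. Ldha, lactate dehydrogenase, fell to 228, 229 and 226 FPKM at 6 h, against 296, 290.4 and 293 at 4 h (log2 change −0.37, SE 0.029, limma adjusted p = 0.000153). Pdk1 (−0.50) and Tpi1 (−0.42) fell, while Hk2 (0.25) and the glucose transporter Slc2a1 (0.17) rose. Cholesterol and fatty acid genes had 13 lower and 3 higher of 29, with the sterol sensor partner Insig1 (−0.43) and the desaturase Scd2 (−0.46) lower. Insig2 (0.43) rose. With all 27 libraries in the fit the counts were 0 higher and 9 lower for ribosome biogenesis, 1 higher and 5 lower for glycolysis and 1 higher and 3 lower for cholesterol and fatty acid genes.

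**Figure D4:**
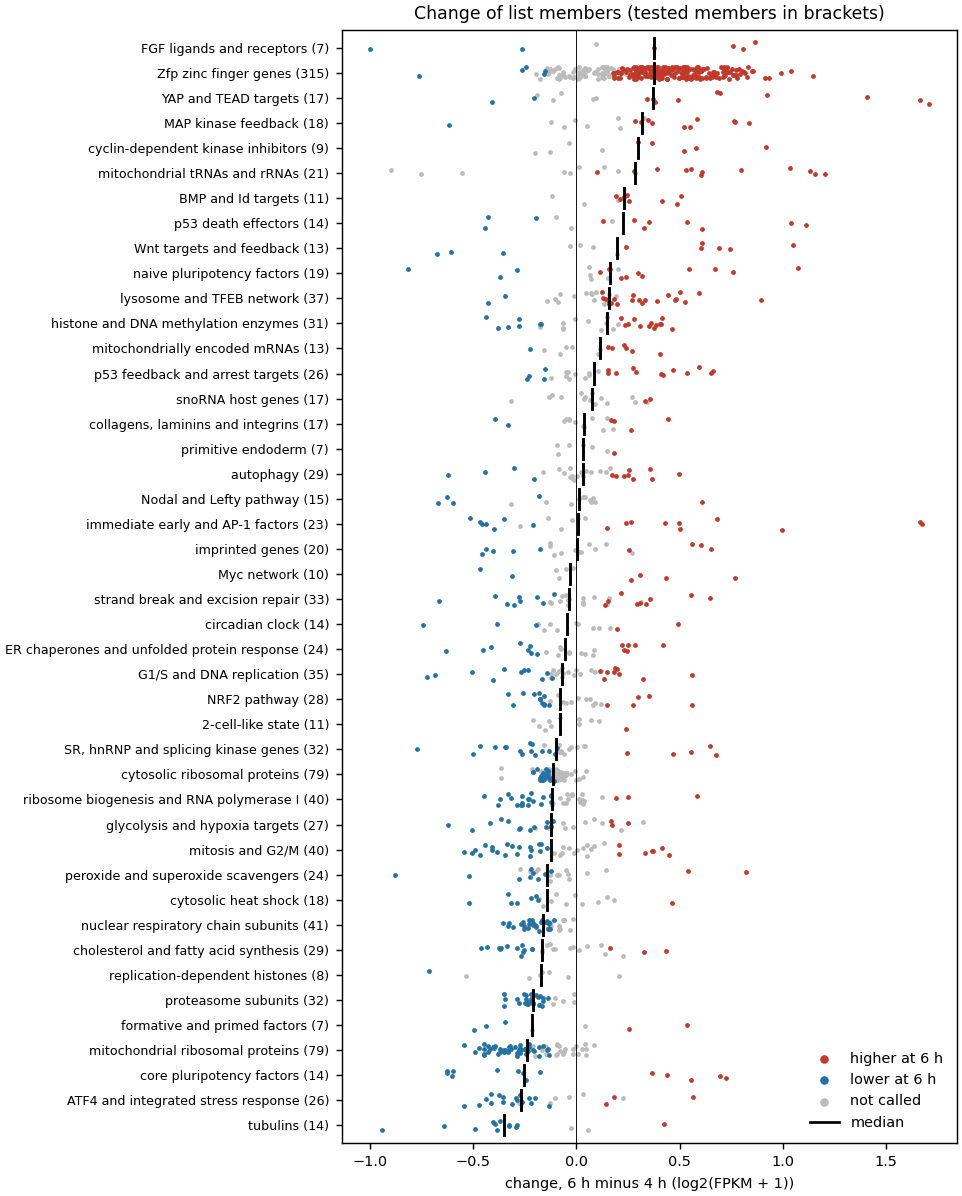
Change, 6 h minus 4 h, on the log2(FPKM + 1) scale of each tested member of the lists with at least 7 tested members (number in brackets), red where called higher, blue where called lower and gray otherwise, with the median as a black bar. Medians run from −0.35 for tubulins to 0.38 for FGF ligands and receptors. All proteasome and respiratory chain points lie below 0, the lowest at −0.35 and −0.36.

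Several genes encoded in mitochondria rose, unlike the nuclear genes of the respiratory chain. Of 13 mitochondrial mRNAs 6 were higher and 1 lower, with mt-Nd4l (0.41) and mt-Nd5 (0.27) at the top and mt-Atp6, at 1484, 1633 and 1469 FPKM at 6 h, against 1774, 1808 and 1768 at 4 h, the single fall (−0.22). With all 27 libraries in the fit, 0 were called in either direction. Of 21 tested mitochondrial tRNA and rRNA genes 12 were higher and 0 lower. With all 27 libraries there were 6 higher and 0 lower, and with the GC and length correction 7 higher and 3 lower. The large rRNA mt-Rnr2 was at 239, 323 and 286 FPKM at 6 h, against 187, 196 and 170.5 at 4 h (0.61), and mt-Tc, the cysteine tRNA, at 24.2, 18.3 and 25.2 FPKM at 6 h, against 9.24, 10.8 and 7.71 at 4 h (log2 change 1.20, SE 0.14, limma adjusted p = 0.000584). These transcripts were read after poly(A) selection, and the tRNA genes are short and adjoin other genes on shared precursors, so reads of neighbours can enter their values.

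Among RNA processing genes, many splicing factors fell while the CDC-like kinases, 1 family of kinases that phosphorylate such factors, rose. Of 32 genes 16 (50.0%) were lower, 5 (15.6%) higher and 11 without a call. With all 27 libraries there were 4 higher and 7 lower. Srsf3, a small SR protein that controls its own splicing, fell to 38.98, 35.9 and 38.6 FPKM at 6 h, against 62.7, 67.9 and 64.9 at 4 h (log2 change −0.77, SE 0.047, limma adjusted p = 7.27e-05). Srsf7 fell to 63.5, 56.2 and 62.6 FPKM at 6 h, against 85.2, 86.7 and 87.2 at 4 h (−0.50), and Hnrnpdl (−0.47), Hnrnpd (−0.39) and Tra2b (−0.35) fell. All 4 CDC-like kinase genes rose. Clk4 was at 11.6, 10.5 and 11.4 FPKM at 6 h, against 6.38, 6.55 and 6.903 at 4 h (0.67). Clk1 was at 18.5, 16.7 and 17.99 FPKM at 6 h, against 11.4, 10.6 and 10.9 at 4 h (0.65), and Clk3 (0.55) and Clk2 (0.47) followed. The other rise was Rsrp1 (0.25). Gene-level FPKM does not separate the poison-exon and retained-intron isoforms that SR and CLK genes are known for. Srsf3 was at 82.3 FPKM in untreated cells at 0 h. It was at 63.8 at 8 h and 93.7 at 10 h.

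Among histone and DNA methylation enzymes 13 were higher and 7 lower of 31, with the H3K4 methyltransferases Setd1a (0.46) and Kmt2a (0.41) higher, and within the Polycomb complex Ezh2 lower at 18.7, 18.5 and 19.3 FPKM at 6 h, against 25.3, 26.3 and 26.1 at 4 h (−0.44) and Suz12 higher (0.41). With the GC and length correction the balance turned to 9 higher and 10 lower, and with all 27 libraries there were 3 higher and 2 lower. A much larger shift was seen in the Zfp-numbered zinc finger genes, a group formed by symbol after the values were seen, in which 231 of 315 tested genes (73.3%) were higher and 5 lower, with a median of 0.37. Their summed FPKM was 2788, 2686 and 2793 FPKM at 6 h, against 2057, 2143 and 2109 at 4 h. It had been 2819 FPKM in untreated cells at 0 h and 2502 at 2 h. It was 3251 FPKM at 8 h. Zfp626 was at 6.11, 5.66 and 6.33 FPKM at 6 h, against 2.52, 2.23 and 2.52 at 4 h (log2 change 1.04, SE 0.066, limma adjusted p = 8.18e-05). Many of these genes are repressors of the KRAB class and form clusters of near-identical copies, whose reads can be divided between members. The GC and length correction left 208 higher and 17 lower, with a median of 0.28, and with all 27 libraries there were 131 higher and 1 lower.

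The direction of change followed transcript length and level. In the shortest quartile of transcripts (median length 903 bases) 10.52% of genes were higher and 27.01% lower, and in the longest quartile (median 5718 bases) 40.9% were higher and 10.7% lower. In the quartile of lowest GC content 34.1% were higher and 17.3% lower, and in the highest 21.5% were higher and 25.3% lower. In the quartile of highest mean FPKM 17.5% were higher and 40.8% lower. Across 12270 genes, which are not independent and share the same 6 libraries, the Pearson correlation of the change was 0.211 with log length and −0.139 with GC content. The part of library composition in this trend was not tested beyond the correction for GC content and length, under which 2649 genes were higher and 3281 lower.

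**Figure D5:**
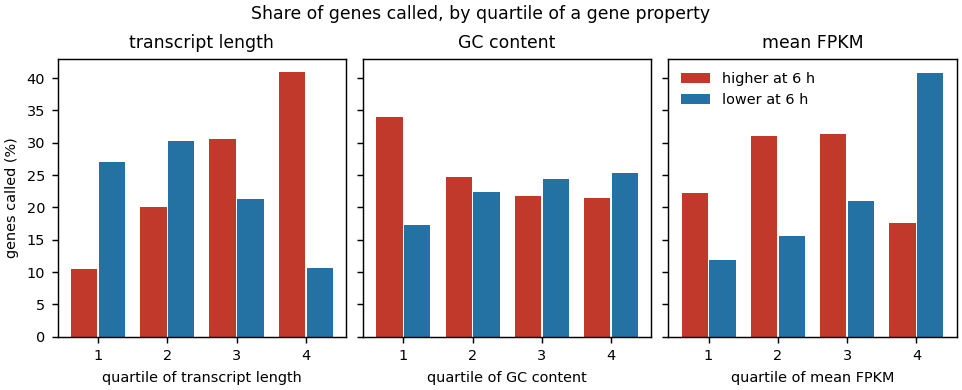
Percentage of tested genes called higher (red) or lower (blue) at 6 h in quartiles of transcript length, GC content and mean FPKM, with quartile 1 the lowest. The higher share climbs from 10.5% to 40.9% with length, and the lower share is 40.8% among the most strongly expressed genes.

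Single genes outside the lists completed the largest changes. The gene for the RAB GTPase-activating protein Tbc1d8 was at 17.6, 18.97 and 18.1 FPKM at 6 h, against 6.63, 7.43 and 7.55 at 4 h (1.23). Shpk, the kinase of sedoheptulose, was at 5.41, 5.17 and 5.96 FPKM at 6 h, against 1.800, 1.705 and 2.01 at 4 h (1.20). Lysmd3 (1.21) and the chromatin remodeler Srcap (1.26) also rose. Apc, the scaffold of beta-catenin destruction, was at 8.504, 7.69 and 7.896 FPKM at 6 h, against 4.07, 5.07 and 0.508 at 4 h (log2 change 1.33, SE 0.46, limma adjusted p = 0.0475). Its 4 h replicate 3 lay far below the other 4 h libraries, and its call was lost in 9 of 17 alternatives. Among genes with a usual symbol and non-overlapping groups, Snhg4 had the largest fitted rise at 5 FPKM or more (1.74), but 2 annotated genes carry this symbol, the other changed by 0.039, and its call was lost in 7 of 16 alternatives. The largest fall was Sumo2, a ubiquitin-like modifier with near-identical processed copies in the genome, at 67.02, 58.6 and 132 FPKM at 6 h, against 146, 177 and 177 at 4 h (log2 change −1.04, SE 0.27, limma adjusted p = 0.0161). In Sumo2, 6 h replicate 3 lay close to the 4 h libraries and the call was lost without 6 h replicate 1 and with no filter on low values (adjusted p in limma up to 0.0822 over all alternatives). Better separated falls were Basp1, a membrane and nuclear adaptor, at 16.1, 16.3 and 16.4 FPKM at 6 h, against 32.5, 30.9 and 30.03 at 4 h (log2 change −0.90, SE 0.042, limma adjusted p = 4.61e-05). Samd1, a reader of unmethylated CpG islands, was at 12.2, 12.1 and 11.4 FPKM at 6 h, against 22.3, 22.00 and 21.8 at 4 h (−0.84). Eras, the stem cell Ras, was at 3.37, 4.18 and 4.37 FPKM at 6 h, against 6.71, 8.01 and 8.97 at 4 h (−0.84). Cdc42ep4, an effector of CDC42, was at 6.65, 7.23 and 7.12 FPKM at 6 h, against 12.6, 13.1 and 12.96 at 4 h (−0.80). Platr7, a noncoding RNA of pluripotent cells (−0.80), Smtnl2 (−0.91), Cmtm7 (−0.80) and Lrrc2 (−0.77) fell by similar amounts.

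Most listed markers of differentiated lineages did not reach the filter, so a low number of calls among them is no result. Of the listed genes, 7 of 16 for primitive endoderm, 4 of 12 for trophectoderm, 2 of 12 for neuroectoderm and 1 of 14 for primitive streak and mesoderm were expressed enough to be tested. Wnt3, tested as a streak gene and as a Wnt ligand, rose (0.74), as did Hes1 (0.37) and, in a call lost in 9 of 16 alternatives, Lamb1 (0.18), and the keratin gene Krt8 fell (−0.35). The astrocyte-listed Aldh1l1, which encodes a folate enzyme, rose to 6.78, 7.25 and 6.98 FPKM at 6 h, against 4.14, 4.08 and 4.19 at 4 h (0.64), and the other 7 astrocyte markers did not reach the filter. No hepatocyte marker was called among the 3 tested, and no fibroblast marker was expressed enough to be tested. Genes of the 2-cell-like state had 1 higher, Usp17le, of a family of near-identical copies (0.24), and 0 lower of 11. Those shares were 9.09% and 0%, with 25.5% and 22.3% over all genes. Imprinted genes had 4 higher, led by Igf2r (0.65), and 5 lower, led by Snrpn (−0.45), of 20. Those shares, 20% and 25%, were near the 25.5% and 22.3% of all genes. The balance turned to 5 higher and 3 lower without 6 h replicate 2, 5 higher and 4 lower without 4 h replicate 1 and 4 higher and 3 lower without 4 h replicate 2. Circadian genes had 2 higher and 3 lower of 14 (14.3% and 21.4%, the lower share near that of all genes), and 2 higher and 1 lower without 4 h replicate 2. Among them the repressor Nr1d1 was at 2.52, 2.81 and 2.68 FPKM at 6 h, against 5.35, 4.96 and 5.12 at 4 h (−0.74). Hosts of small nucleolar RNAs had 2 higher, Snhg5 (0.36) and Snhg8 (0.33), and 0 lower of 17 (11.8% and 0%, with 25.5% and 22.3% over all genes). Matrix and integrin genes had 4 higher, led by Itgav (0.44), and 2 lower, Itga5 (−0.40) and Itgb5 (−0.33), of 17 (23.5% and 11.8%, the higher share near that of all genes).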

How the data were processed

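RNA was sequenced from 27 libraries of E14Tg2a mouse embryonic stem cells, in 9 groups of 3, and the 6 libraries of 6 h and 4 h were compared. The authors deposited FPKM values per gene in tables that repeat the untreated 0 h columns, and the 15 repeated columns held identical values. Per the submitters' processing notes, the build was mm10 and the tools included HISAT2, StringTie, cutadapt, FastQC and edgeR, and no source used here gives their versions or the strand setting. No counts were used, so depth is unknown and no counting interval is given.

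Genes were matched by gene ID across tables of 38352 genes. The 12279 genes that reached 1 FPKM in 3 or more of the 6 libraries were tested on log2(FPKM + 1) with limma 3.58.1 in R 4.3.3, with a mean-variance trend, no covariate and Benjamini-Hochberg adjustment over all tested genes, and a gene was called at an adjusted p below 0.05. The labels describe biological replicates from separate time courses. On simulated data with 200 changed genes among 12279, 71% of genes changed by 0.5 and 96% of those changed by 1 were recovered, and 4.02% of calls were unchanged genes. The simulation changed far fewer genes than the 47.9% called here, by more than the median called change, and drew each gene independently. Its shares therefore do not give the recovery or the error of this comparison. Levels at other times were not tested.

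Gene lists (50, with 1195 of 1200 entries matched) were taken by symbol, and a symbol shared by several genes took the gene with the highest mean. The comparison, its lists and members were chosen with earlier results of these data known. Named genes were the 12 largest rises and 12 largest falls at 5 FPKM or more with groups that did not overlap (gene models without a usual symbol, such as Gm and a number, left out), up to 4 called members per list, and a fixed panel, and other members named here were picked after their values were seen. Promoters of GRCm38.p6 and their positions came from RefSeq, independently of the expression tables. Alternatives covered the pseudocount, the filter, scaling, the variance trend, all 27 libraries, library weights, a replicate block, a spline correction for GC content and length, and leaving out each library. Results of a few genes that the naming rule or the lists include are not reported here.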

Additional observations from a re-analysis of the deposited data

How the results depend on the processing

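The main count was 5876 genes, 3135 higher and 2741 lower. Fitted with all 27 libraries it was 2690, with 1561 higher and 1129 lower, and with a minimum change of 1 on the log2 scale it was 60, with 55 higher and 5 lower. A filter of 5 FPKM left 4079 calls, 1935 higher and 2144 lower, so that 47.4% of the calls were higher and the balance turned. Without 1 library in turn the counts ran from 4533 to 5671 in all, from 2487 to 3051 higher and from 2046 to 2620 lower. With library weights 7322 genes were called (3697 higher and 3625 lower). The GC and length correction gave 5930, of which 2649 were higher and 3281 lower, and 44.7% of the calls were higher, where the main share was 53.4%.

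Same-numbered libraries did not deviate together (correlations of −0.029, −0.032 and 0.017), and the replicate block gave 5356 calls (2829 higher and 2527 lower), 5484 with scaling and 5593 with the GC and length correction. Of 3375 values of 201 named genes under the alternatives, 3223 kept their side of the threshold, 145 lost their call, 50 of them with all 27 libraries, and 7 gained one. Among genes with a call 0 values changed sign, and Cdkn1a, Esrrb and Hspa1a, which had no call, changed sign in at least 1 alternative. The cause was not tested. Klf4 (14 alternatives), Rps3a1 (12), Arntl (10), Rpl34 (10), Ciart (9) and Usp17le (6) lost their calls most often besides those given above. In collagens, laminins and integrins the correction turned the balance to 2 higher and 5 lower, and all 27 libraries to 0 higher and 2 lower. Depth is unknown, and genes of low FPKM carry changes that the added 1 FPKM compresses.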

Other observations

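Genes of the mitochondrial ribosome, a group formed by symbol after the values were seen, had 50 lower and 0 higher genes of 79 tested (63.3% lower, with 22.3% over all genes), and a median change of −0.24. Their summed FPKM was 1585, 1581 and 1575 FPKM at 6 h, against 1919, 1809 and 1885 at 4 h, after 2154 FPKM in untreated cells at 0 h. With the GC and length correction the count was 0 higher and 46 lower, and with all 27 libraries 0 higher and 12 lower. These nuclear genes serve translation inside mitochondria, and they moved downward while several transcripts of the mitochondrial genome moved upward.

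Within the mitochondrial genome the tRNA genes differed by strand, in a split also made after the values were seen. Of the 8 tested tRNA genes on the minus strand, 7 were higher and 0 lower, with a median change of 0.92, whereas of 11 tested on the plus strand 3 were higher and 0 lower, with a median of 0.13. The neighbours mt-Ta (1.03), mt-Tn (1.13), mt-Tc (1.20) and mt-Ty (1.15), which carry alanine, asparagine, cysteine and tyrosine, rose by similar amounts. In mt-Ta the values were 22.3, 19.7 and 21.3 FPKM at 6 h, against 10.5, 10.7 and 8.35 at 4 h, and in mt-Ty they were 24.6, 19.3 and 27.3 FPKM at 6 h, against 9.25, 10.5 and 10.3 at 4 h. The exception on the minus strand was mt-Ts1, at 342, 318 and 315 FPKM at 6 h, against 338, 334 and 343 at 4 h, whose 3' end overlaps that of mt-Co1 on the other strand. The counting of strand is not given in the sources used here, and reads of opposite transcripts may not be separated. On the plus strand mt-Th had means of 2.10 FPKM at 6 h and 6.26 FPKM at 4 h and did not pass (−0.90).

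Long noncoding and other genes that do not code for protein (1821 tested) had 247 higher and 236 lower, and protein-coding genes (10458) had 2888 higher and 2505 lower. Of the blood and endothelial markers, the receptor gene Tek was at 3.696, 4.17 and 3.72 FPKM at 6 h, against 1.93, 2.03 and 2.01 at 4 h (0.70) and the adhesion gene Pecam1, which embryonic stem cells also express, at 10.4, 11.3 and 9.99 FPKM at 6 h, against 13.9, 15.3 and 14.5 at 4 h (−0.43). The inhibitory Smad gene Smad7 (0.21) and the ligand Bmp7 (0.42) rose with the BMP list, and Atm, the kinase of the strand break response, was at 3.42, 2.97 and 3.21 FPKM at 6 h, against 1.797, 3.002 and 2.46 at 4 h (log2 change 0.31, limma adjusted p = 0.0779) without a call.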
